A study of Mus musculus with 6 samples.

Results

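*Dusp1*, *Dusp2*, *Dusp4*, *Dusp5*, *Dusp6* and *Dusp10* encode dual specificity phosphatases that act on MAP kinases. They were taken by gene symbol and make up 6 of the 31053 features in the expression tables, in which a further 18 symbols begin with Dusp. The set was chosen by symbol with the levels of *Dusp5* and *Dusp4* by genotype and cell state in these same libraries already known, so the differences given here describe these libraries and carry no independent support.

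The data are droplet-based 3′ single cell RNA-seq of mouse germinal center (GC) B-cells, the antigen-activated B-cells that divide and mutate their antibody genes in the follicles of lymphoid organs. There were 3 libraries labelled Cgamma1-Cre WT Control, written *Smc3* wt/wt here, and 3 labelled Cgamma1-Cre Smc3 +/-, written *Smc3* wt/-. All 6 carry *Cγ1*-Cre, a recombinase expressed from the *Ighg1* locus in B-cells that enter the GC reaction, so deletion is limited to cells in which this locus has been active and the controls carry the driver as well. Per the methods of the study, the deleted allele lacks exon 4 of *Smc3*, which encodes a core subunit of the cohesin ring, and cells were sorted from spleens after immunization with sheep red blood cells. The methods count the mice of each genotype but do not say which of them lie behind each library, and the age of the animals was not given in the sources used here, so the spread between libraries may be partly technical.

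MAP kinases relay signals from the B-cell receptor and from co-stimulatory receptors to the nucleus, and they are active only while a threonine and a tyrosine in their activation loop are both phosphorylated. Dual specificity phosphatases remove both phosphates. Many of their genes are themselves switched on by the kinases they oppose, which makes them feedback inhibitors. *Dusp1*, *Dusp2* and *Dusp4* encode inducible nuclear enzymes, and *Dusp2* was first known from activated lymphocytes. *Dusp5* encodes a nuclear enzyme selective for ERK and *Dusp6* a cytoplasmic enzyme selective for ERK. *Dusp10* encodes an enzyme that prefers the stress kinases JNK and p38.

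The genes lie on 6 chromosomes, and *Dusp5* is the only one of them on the chromosome of *Smc3*. In GENCODE release M21 (GRCm38), *Dusp5* (ENSMUSG00000034765) spans chr19:53529109-53542431 on the plus strand. *Dusp4* (ENSMUSG00000031530) spans chr8:34807297-34819894 on the plus strand. *Dusp2* (ENSMUSG00000027368) spans chr2:127336159-127338376 on the plus strand and is the shortest of the 6 genes. *Dusp1* (ENSMUSG00000024190) spans chr17:26505590-26562128 on the minus strand, *Dusp6* (ENSMUSG00000019960) chr10:99263231-99267489 on the plus strand and *Dusp10* (ENSMUSG00000039384) chr1:184013302-184075636 on the plus strand. Each is annotated as protein coding.

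The 250 bases before the RefSeq start of *Dusp5*, *Dusp1*, *Dusp2* and *Dusp10* are shown, as genes that differed by genotype, by library or by cell state in the values that follow. *Dusp6* also differed by cell state and had an entry, but its window is not shown. The sequences shown were read from RefSeq promoters of GRCm38.p6, in which 5 of the 6 symbols had an entry, and are written 5′ to 3′ on the strand of the gene. Capitals mark a CArG box, the element bound by serum response factor, in *Dusp5*, a CRE (TGACGTCA, the element of CREB factors) in *Dusp1*, 3 GC boxes (GGGCGG) and an E-box (CACGTG) in *Dusp2*, and CCAAT boxes (CCAAT) in *Dusp10*, each on either strand. The windows are chr19:53528895-53529144 (plus strand), chr17:26508473-26508722 (minus strand), chr2:127335909-127336158 (plus strand) and chr1:184034131-184034380 (plus strand), in that order.
Dusp5: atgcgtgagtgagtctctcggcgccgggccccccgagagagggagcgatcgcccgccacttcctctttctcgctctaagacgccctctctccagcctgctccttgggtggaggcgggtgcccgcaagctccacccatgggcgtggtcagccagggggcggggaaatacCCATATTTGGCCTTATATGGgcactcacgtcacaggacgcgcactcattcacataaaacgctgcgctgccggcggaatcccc
Dusp1: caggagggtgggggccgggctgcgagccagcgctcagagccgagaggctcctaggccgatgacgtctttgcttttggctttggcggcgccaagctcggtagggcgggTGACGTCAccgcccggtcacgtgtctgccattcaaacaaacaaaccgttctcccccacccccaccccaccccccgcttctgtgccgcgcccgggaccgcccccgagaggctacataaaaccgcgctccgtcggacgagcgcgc
Dusp2: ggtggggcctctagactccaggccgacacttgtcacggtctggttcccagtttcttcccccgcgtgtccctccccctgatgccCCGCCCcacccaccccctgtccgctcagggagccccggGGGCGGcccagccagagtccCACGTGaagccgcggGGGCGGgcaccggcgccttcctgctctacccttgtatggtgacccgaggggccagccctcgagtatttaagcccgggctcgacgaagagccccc
Dusp10: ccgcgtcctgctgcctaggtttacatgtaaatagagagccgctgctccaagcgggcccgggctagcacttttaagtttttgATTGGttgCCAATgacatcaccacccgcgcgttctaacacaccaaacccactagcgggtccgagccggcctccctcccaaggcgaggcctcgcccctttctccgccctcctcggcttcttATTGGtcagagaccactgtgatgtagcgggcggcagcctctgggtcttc

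The capitals of *Dusp5* are 2 adjacent CArG boxes from 82 to 63 bases before the start. This motif was present in 1 of the 5 members with a promoter and in 1.47% of the 32851 promoters. The CRE was also present in 1 of 5, with a share of 1.55% of all promoters. GC boxes were found in 4 of 5 members and in 32.7% of all promoters, CCAAT boxes in 2 of 5 and in 33.8%, and E-boxes in 2 of 5 and in 6.02%. An AP-1 site (TGANTCA) was found in 0 of 5 members and in 6.75% of all promoters. None of these motifs overlapped another one in the members. The windows of the 5 members held 56.4% to 70.4% G and C, against a median of 52.4% over all promoters. A match is a description of the letters, and its absence says only that they are not in this window. For *Dusp1*, *Dusp5* and *Dusp10* the RefSeq start lies inside the GENCODE gene.

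The 6 libraries held between 5223325 and 35354257 unique molecular identifiers (UMIs, each counting 1 captured transcript), and 20847 cells were retained. Of 20603 distinct barcodes, 242 occurred in 2 or more libraries. Clusters were named from marker genes with the suffix "-like", and the listed genes were left out of the clustering. CB-like (centroblast-like, cycling), S-phase, CC-like (centrocyte-like) and recycling-like cells together form the 11971 GC B-like cells, with 366 to 3287 per library. Markers placed other cells outside the labelled GC B-cells, as 1721 naive or memory B-like, 1927 plasma-lineage, 532 T cell-like and 746 myeloid-like cells. Clusters led by *Cd2* (1973 cells), by haemoglobin genes and *Cd83* (1889 cells) and by *Ifit3* (88 cells) stayed unnamed, outside the GC B-like class. The 10 highest genes of the CC-like cluster (1123 cells) included *Myc*, a listed recycling-like marker. They shared *Cd83*, *Il4i1* and *Fcer2a* with the haemoglobin- and *Cd83*-led cluster, so CC-like cells may be only a part of the centrocytes. Replicate 2 labelled *Smc3* wt/- stood apart, with 52.9% of its UMIs from immunoglobulin genes against 2.43% to 3.93% in the others, and it held 1603 of the plasma-lineage and 641 of the myeloid-like cells. In its GC B-like cells the immunoglobulin share was 4.89%. The summed level of 20 myeloid markers in GC B-like cells was 810 CPM (UMIs scaled to a total of 1000000) in that library, 28.0 to 31.1 CPM in *Smc3* wt/wt libraries and 18.4 CPM in the lowest *Smc3* wt/- library. Where the direction of a genotype difference described in words turns on this library, its value without it is given as well. By *Xist* and Y-linked transcripts, replicates 1 and 2 labelled *Smc3* wt/wt and replicate 2 labelled *Smc3* wt/- were male and the other 3 female.

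Across B-cell states, *Dusp2* and *Dusp10* were high in CC-like and low in plasma-lineage cells, whereas *Dusp4* had its highest mean in plasma-lineage cells. Levels are UMIs summed over the cells of a state in a library and scaled by the total of that sum (CPM), and in such sums fewer cells with a transcript and less transcript per cell cannot be told apart. Values are compared between states of one gene and not between genes.

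**Figure D1:**
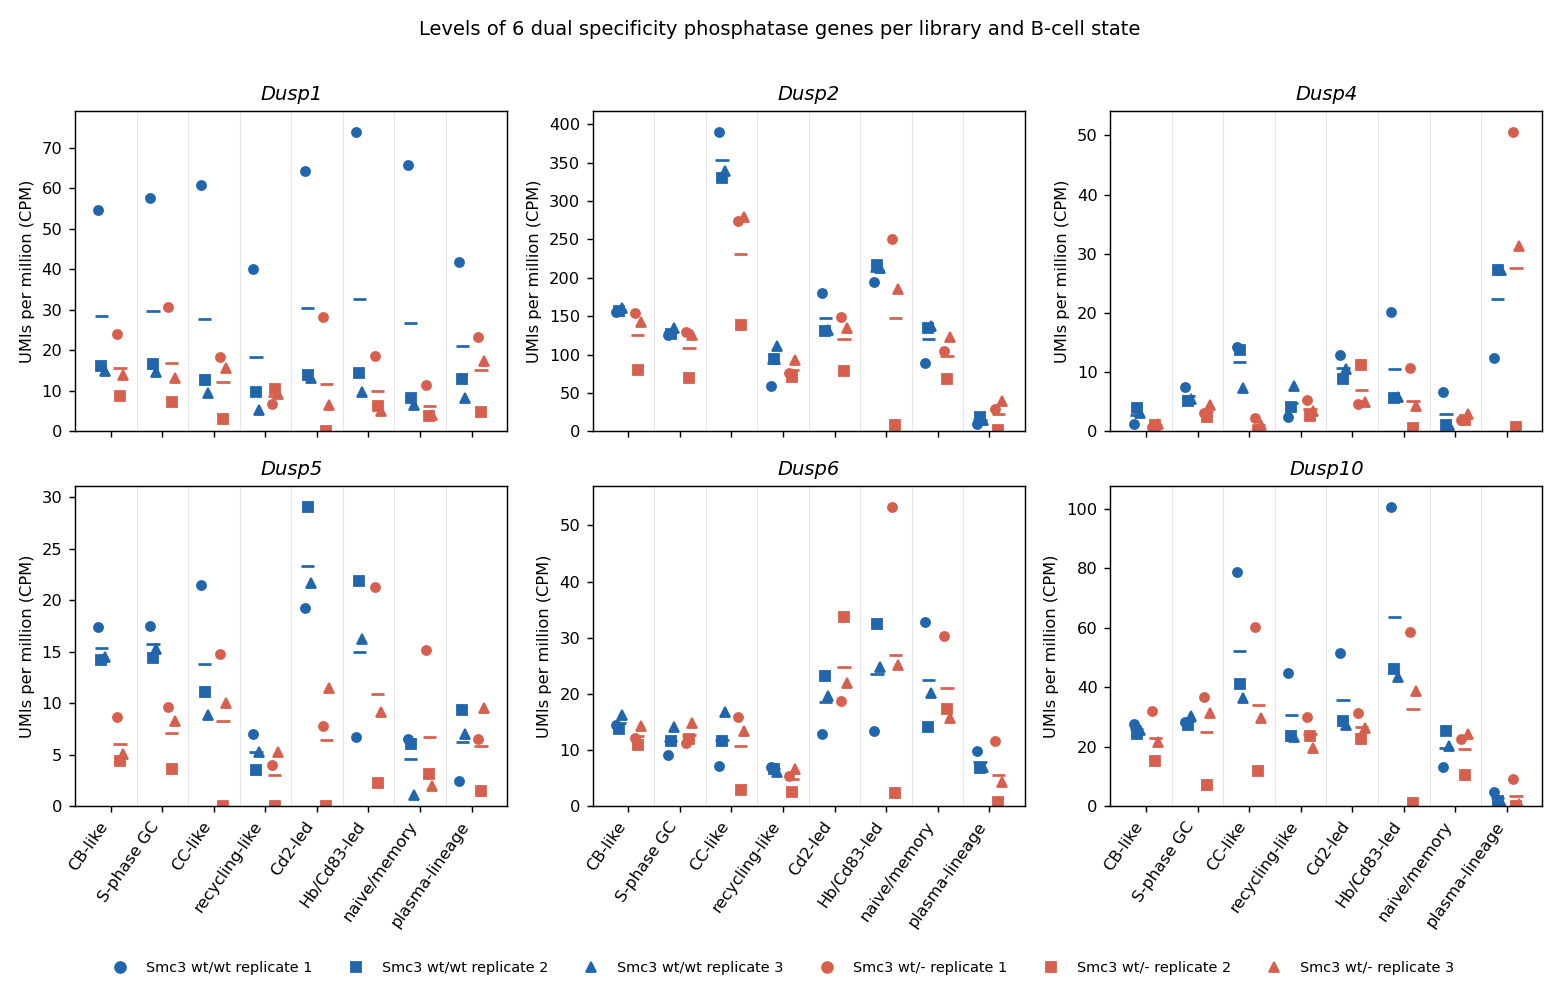
CPM of the 6 genes in 8 B-cell states, with 1 point per library coloured by genotype label, a symbol for each replicate number and a short line at the mean of each genotype label. The *Dusp2* points are highest in CC-like cells (138 to 390 CPM), and for *Dusp1* the points of replicate 1 labelled *Smc3* wt/wt stand above all others in each state.

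*Dusp2* stood at 390, 330 and 339 CPM in CC-like cells of the *Smc3* wt/wt libraries and at 274, 138 and 280 CPM in those of the *Smc3* wt/- libraries. In CB-like cells the corresponding values were 155, 157 and 161 CPM and 154, 80.4 and 142 CPM. Every library thus had more *Dusp2* in its CC-like than in its CB-like cells. The mean over libraries was 292 ± 86.4 CPM (SD, n = 6) in CC-like cells, and the next state, an unnamed cluster led by haemoglobin genes and *Cd83*, had 178 ± 86.1 CPM. In replicate 2 labelled *Smc3* wt/- that cluster had 66.34% of its UMIs from immunoglobulin genes, against 1.65% to 2.02% in the others, and 8.53 CPM *Dusp2* against 185 to 251 CPM. CB-like cells (142 CPM), an unnamed cluster led by *Cd2* (134 CPM), S-phase cells (118 CPM) and naive or memory B-like cells (109 CPM) followed, and none of these differed from its neighbour by more than 1 SD of the difference within libraries. Recycling-like cells (84.0 CPM) and plasma-lineage cells (18.8 ± 13.5 CPM, SD, n = 6) were each below the preceding state by more than that spread.

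*Dusp10* in CC-like cells stood at 78.7, 41.1 and 36.6 CPM under the *Smc3* wt/wt label and at 60.4, 11.8 and 29.6 CPM in *Smc3* wt/- libraries. In CB-like cells it stood at 27.6, 24.2 and 25.6 CPM and at 32.1, 15.2 and 21.4 CPM. The CC-like value was the higher one in 5 of 6 libraries, the exception being replicate 2 labelled *Smc3* wt/-. Its order of states was led by the haemoglobin- and *Cd83*-led cluster (48.2 CPM) and CC-like cells (43.0 CPM), which did not differ beyond their spread. The former mean includes 1.14 CPM in replicate 2 labelled *Smc3* wt/-, where that cluster was rich in immunoglobulin UMIs. The *Cd2*-led cluster (31.3 CPM) lay above recycling-like cells (27.4 CPM) by more than the spread, whereas recycling-like, S-phase (26.9 CPM), CB-like (24.4 CPM) and naive or memory B-like cells (19.4 CPM) could not be separated as neighbours. Plasma-lineage cells, at 2.996 ± 3.41 CPM (SD, n = 6), were below all 7 other states, and 17 *Dusp10* UMIs were counted in them.

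The ERK phosphatase *Dusp6* had its highest means in the haemoglobin- and *Cd83*-led cluster (25.2 CPM), naive or memory B-like cells (21.7 CPM) and the *Cd2*-led cluster (21.7 CPM), the first of these with 2.27 CPM in replicate 2 labelled *Smc3* wt/-. It was lowest in recycling-like cells, with 7.05, 6.62 and 6.17 CPM under the *Smc3* wt/wt label and 5.31, 2.61 and 6.64 CPM in *Smc3* wt/- libraries. No pair of neighbours in its order differed beyond the spread, although recycling-like cells lay below CB-like cells (13.6 ± 1.87 CPM, SD, n = 6) in every library. *Dusp5*, the nuclear ERK phosphatase, ranged from 14.9 CPM in the *Cd2*-led cluster to 4.18 CPM in recycling-like cells, and again no neighbours differed beyond the spread. *Dusp1* ranged only from 23.2 CPM in S-phase to 13.5 CPM in recycling-like cells, with no neighbours apart. With immunoglobulin UMIs left out of the denominator plasma-lineage cells had its highest mean, at 25.95 CPM, and CB-like cells had 22.5 CPM. Its spread between libraries exceeded its spread between states: replicate 1 labelled *Smc3* wt/wt was the highest library in 8 of 8 B-cell states, with 54.3 CPM in GC B-like cells against 7.66 to 23.3 CPM in the other 5 libraries. That library was also the shallowest of the 6. The part of depth in this was not tested.

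*Dusp4* gave few UMIs in most states. Its order of means ran from plasma-lineage cells (24.9 ± 17.1 CPM, SD, n = 6) through the *Cd2*-led cluster (8.86 CPM), the haemoglobin- and *Cd83*-led cluster (7.86 CPM), CC-like (6.45 CPM), S-phase (4.66 CPM), recycling-like (4.27 CPM) and naive or memory B-like (2.55 CPM) to CB-like cells (1.88 CPM). No neighbours differed beyond the spread, but with immunoglobulin UMIs left out of the denominator plasma-lineage cells (33.2 CPM) stood above the next state by more than the spread. S-phase cells, at 2.39 to 7.50 CPM, exceeded CB-like cells, at 0.738 to 4.0 CPM, in each of the 6 libraries.

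*Dusp4* in plasma-lineage cells came almost entirely from 1 of their 2 clusters. The cluster led by *Ighg1*, *Hsp90b1* and *Slpi* (584 cells) held 172 of the 173 *Dusp4* UMIs and the cluster led by *Prg2*, *Igha* and *Jchain* (1343 cells) held 1. Within the *Ighg1*-led cluster *Dusp4* stood at 17.6, 34.4 and 36.1 CPM under the *Smc3* wt/wt label and at 58.6, 5.03 and 36.9 CPM in *Smc3* wt/- libraries, so the groups overlapped. Replicate 2 labelled *Smc3* wt/- was the lowest there and also supplied 1265 of the 1343 cells of the *Prg2*-led cluster, where its level was 0.0502 CPM. The *Ighg1*-led cluster was thus the higher one within this library too, with 17 *Dusp4* UMIs in 338 cells. Each of the other 5 libraries had 12 to 22 cells in the *Prg2*-led cluster and 0 *Dusp4* UMIs in them.

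States were also compared in fits across all genes with the library as a block. Since the clusters were made from these cells, the differences are descriptions. Between CC-like and CB-like cells *Dusp2* differed by a log2 fold change of 1.03 (SE 0.06, 95% limits 0.89 to 1.16) and *Dusp10* by 0.70 (SE 0.12, 95% limits 0.45 to 0.95), and both were called higher by edgeR at an adjusted p under 0.05. *Dusp1* (-0.23), *Dusp5* (-0.02) and *Dusp6* (-0.08) were not called. Thus 2 of the 5 members tested were called, against 48.5% of the 7996 genes tested (25.1% called higher and 23.4% lower), a share near that background. *Dusp4* did not pass the filter on low counts in the comparisons of states. Fitted without that filter, its log2 fold change over CB-like cells was 1.43 in CC-like, 1.15 in recycling-like, 4.30 in plasma-lineage and 0.10 in naive or memory B-like cells. The first 3 of these were called higher (edgeR adjusted p = 3.61e-05, 0.000254 and 9.27e-09), against 27%, 42.3% and 30.9% of all genes called in either direction in those fits.

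In recycling-like against CB-like cells, 4 of 5 members were called lower and 0 higher, against 36.3% of 8637 genes called lower and 34.1% higher (70.5% in all). The ERK phosphatases had the lowest values, with log2 fold changes of -1.17 (SE 0.24) for *Dusp5* and -1.12 (SE 0.16) for *Dusp6*. *Dusp1* (-0.86, SE 0.17) and *Dusp2* (-0.62, SE 0.07) were called as well, the former only with the library as a block, and *Dusp10* (0.05) was not. Naive or memory B-like cells had more *Dusp6* than CB-like cells (0.71, SE 0.20) and less *Dusp1* (-0.66, SE 0.25), the latter called in 7 of 15 alternative settings. These were 2 of the 4 members tested, with 1 higher and 1 lower, against 57.7% of 7474 genes (29.7% higher and 27.9% lower). *Dusp2* (-0.18) and *Dusp10* (-0.05) were not called. Without the filter on low counts *Dusp5* (-1.04, edgeR adjusted p = 0.0336) and *Dusp2* (-0.35, adjusted p = 0.0156) were called lower as well, against 32.3% of genes called in that fit.

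In plasma-lineage against CB-like cells, *Dusp10* (-2.98, SE 0.42) and *Dusp2* (-2.41, SE 0.27) were called lower. *Dusp5* (0.16) and *Dusp6* (-0.52) were not called. *Dusp1* was called higher (0.53, SE 0.20), but only 1 of 15 alternatives kept that call, and its mean went the other way on the CPM scale (18.1 in plasma-lineage and 22.0 in CB-like cells) but not without immunoglobulin UMIs in the denominator (25.95 and 22.5 CPM), with 21.03% to 65.97% of UMIs in plasma-lineage cells from immunoglobulin genes. In all, 3 of 5 members were called, 1 higher and 2 lower, against 53.8% of 7459 genes (27.1% higher and 26.6% lower).

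**Figure D2:**
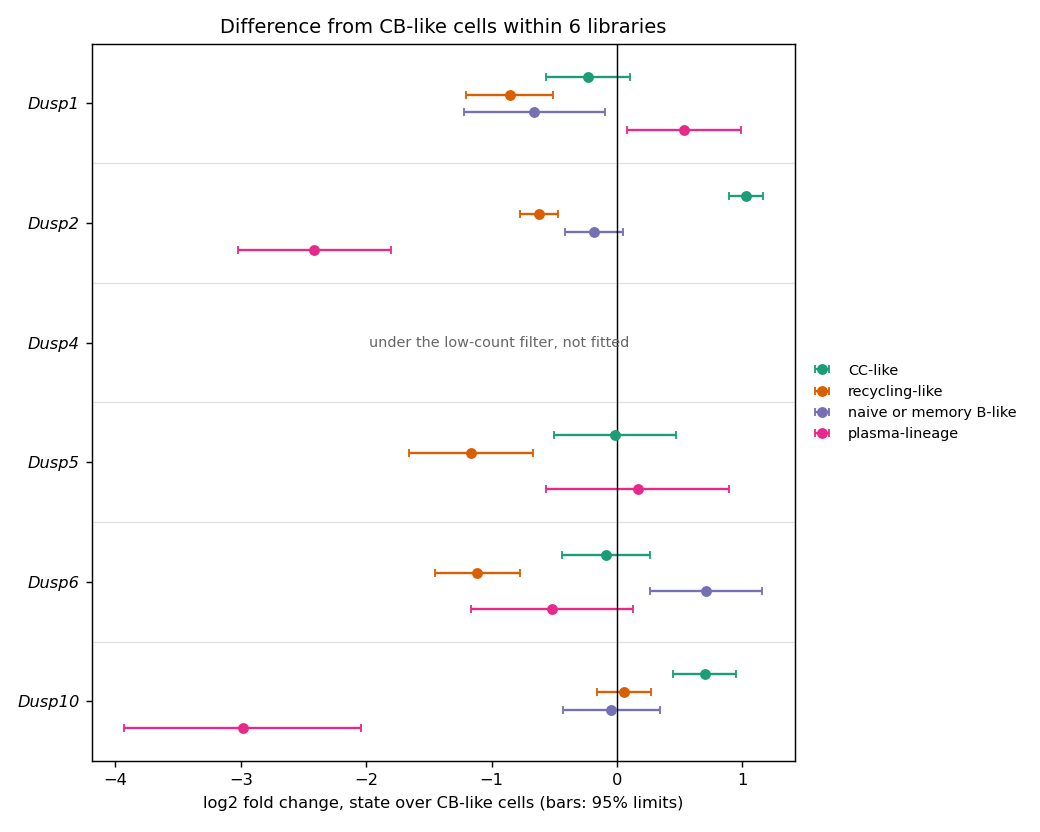
Log2 fold change over CB-like cells of the members in CC-like, recycling-like, naive or memory B-like and plasma-lineage cells, with 95% limits from edgeR. *Dusp2* is at 1.03 in CC-like and -2.41 in plasma-lineage cells, and *Dusp10* moves in the same directions (0.70 and -2.98).

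The genotype comparison asks which transcripts differ when B-cells entering the GC carry 1 intact copy of *Smc3*. *Smc3* itself stood at 168, 174 and 162 CPM in GC B-like cells of the *Smc3* wt/wt libraries and at 160, 123 and 181 CPM in those of the *Smc3* wt/- libraries. The groups overlapped and the log2 fold change was -0.08 (SE 0.14, 95% limits -0.42 to 0.26), or 0.0034 without replicate 2 labelled *Smc3* wt/-. A 3′ count does not report on the deleted exon, and the level of transcript from the deleted allele was not measured apart. The study reported reduced *Smc3* expression by RNA-seq in lymphomas of *Smc3* wt/- mice with a *Bcl6* transgene, which are other cells. Whether the labels or the extent of deletion bear on the value here was not tested.

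*Dusp5* and *Dusp4* were both lower in GC B-like cells of all 3 *Smc3* wt/- libraries, *Dusp2* was lower by a small margin, and *Dusp1*, *Dusp6* and *Dusp10* overlapped between genotypes. In the settings used throughout, with the filter on low counts, edgeR called no gene in any of the 5 classes tested.

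*Dusp5* stood at 16.5, 12.8 and 13.2 CPM in GC B-like cells of the *Smc3* wt/wt libraries (59, 325 and 356 UMIs) and at 8.82, 2.82 and 6.50 CPM in those of the *Smc3* wt/- libraries (100, 7 and 160 UMIs). The highest *Smc3* wt/- library was below the lowest *Smc3* wt/wt library. The means were 14.2 ± 2.03 and 6.05 ± 3.02 CPM (SD, n = 3 each), and the log2 fold change was -1.08 (SE 0.26, 95% limits -1.69 to -0.47). Without replicate 2 labelled *Smc3* wt/- it was -0.91, and over 16 alternative settings it lay between -1.32 and -0.91.

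*Dusp5* was also lower in all *Smc3* wt/- libraries within CB-like cells, S-phase cells and the *Cd2*-led cluster. In CB-like cells it stood at 17.4, 14.2 and 14.5 CPM against 8.67, 4.35 and 5.09 CPM, with a log2 fold change of -1.25 (SE 0.22, 95% limits -1.75 to -0.75). In S-phase cells it stood at 17.5, 14.4 and 15.2 CPM against 9.61, 3.58 and 8.26 CPM, and in the *Cd2*-led cluster at 19.3, 29.1 and 21.7 CPM against 7.82, 0 and 11.5 CPM. Among genes with at least 20 UMIs, 3.81% were likewise lower without overlap in S-phase cells and 5% in the *Cd2*-led cluster. The genotypes overlapped in CC-like cells, with 21.5, 11.1 and 8.88 CPM against 14.8, 0 and 10.1 CPM and a log2 fold change of -0.14 (SE 0.47, 95% limits -1.19 to 0.92), which was 0.06 without replicate 2 labelled *Smc3* wt/- and -0.61 with doublets kept. They also overlapped in the haemoglobin- and *Cd83*-led cluster and in recycling-like, naive or memory B-like and plasma-lineage cells, where no library had more than 35 *Dusp5* UMIs. In naive or memory B-like cells the *Smc3* wt/- mean was the higher one, at 6.74 against 4.57 CPM from 15 and 9 UMIs. Whether the genotype difference itself differed between states was not tested.

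*Dusp4* stood at 4.48, 5.13 and 4.71 CPM in GC B-like cells of the *Smc3* wt/wt libraries (16, 130 and 127 UMIs) and at 2.20, 1.61 and 2.48 CPM in those of the *Smc3* wt/- libraries (25, 4 and 61 UMIs). Libraries of 1 genotype lay close together, and the genotypes did not overlap. The means were 4.77 ± 0.329 and 2.10 ± 0.442 CPM (SD, n = 3 each), with a log2 fold change of -1.11 (SE 0.25, 95% limits -1.70 to -0.53). Without replicate 2 labelled *Smc3* wt/- it was -1.06, and over 16 alternatives it lay between -1.28 and -0.95.

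By state, *Dusp4* was lower in all *Smc3* wt/- libraries in CB-like, S-phase and CC-like cells. The genotypes overlapped in recycling-like cells (means of 4.73 CPM in *Smc3* wt/wt and 3.81 CPM in *Smc3* wt/- libraries). They also overlapped in the *Cd2*-led cluster, the haemoglobin- and *Cd83*-led cluster and naive or memory B-like cells. In CB-like cells the fit gave -1.64 (SE 0.48, 95% limits -2.74 to -0.54) from 1.20, 4.0 and 3.08 CPM (2, 49 and 40 UMIs) against 0.738, 1.09 and 1.17 CPM (4, 1 and 14 UMIs). The lowest *Smc3* wt/wt library, with 2 UMIs, and the highest *Smc3* wt/- library thus stood at nearly the same level. In CC-like cells *Dusp4* stood at 14.3, 13.7 and 7.31 CPM (4, 26 and 14 UMIs) against 2.28, 0 and 1.12 CPM (2, 0 and 2 UMIs), which is under the filter on low counts. Without that filter the log2 fold change was -2.96, and *Dusp4* was among 21 genes called of 13361, or 0.157%. *Dusp4* was chosen with its genotype difference known, so this call carries no independent support. Under the 8 other settings in which it could be fitted, all with the filter, it was not called and lay between -3.39 and -1.52, with the value nearest 0 from clusters at a finer resolution. *Smc3* wt/wt libraries had more *Dusp4* in CC-like than in CB-like cells in 3 of 3 cases and *Smc3* wt/- libraries in 1 of 3, a contrast between genotypes that was not tested. In plasma-lineage cells the genotypes overlapped, with 12.3, 27.3 and 27.3 CPM against 50.6, 0.773 and 31.3 CPM and a log2 fold change of -0.04 (SE 0.82), which was 0.54 without replicate 2 labelled *Smc3* wt/- and -1.10 with sex as a covariate.

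*Dusp2*, which gave 206 to 4280 UMIs per library in GC B-like cells, had a narrower difference. In GC B-like cells it stood at 152, 153 and 159 CPM against 146, 83.1 and 141 CPM, which do not overlap, with a log2 fold change of -0.30 (SE 0.18, 95% limits -0.71 to 0.12). Replicate 2 labelled *Smc3* wt/- was far below the other libraries, and without it the log2 fold change was -0.14. Among CC-like cells it came to -0.55 (SE 0.21, 95% limits -1.02 to -0.07), and -0.37 without that library. In plasma-lineage cells the log2 fold change of *Dusp2* was 0.47 (SE 0.68), with *Smc3* wt/- libraries at 28.5, 1.54 and 39.2 CPM on both sides of the *Smc3* wt/wt libraries (9.84, 18.8 and 14.6 CPM). It was -0.29 without replicate 3 labelled *Smc3* wt/-, in which 55.56% of the 45 UMIs came from 1 cell, 1.03 without replicate 2 labelled *Smc3* wt/- and -0.16 with sex as a covariate.

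The other 3 genes showed no separation of genotypes in GC B-like cells. *Dusp10* stood at 33.9, 26.4 and 27.6 CPM against 35.4, 13.3 and 25.1 CPM, with a log2 fold change of -0.18 (SE 0.25, 95% limits -0.76 to 0.40) that was 0.03 without replicate 2 labelled *Smc3* wt/-. *Dusp6* stood at 11.2, 12.1 and 14.3 CPM against 11.3, 8.87 and 13.5 CPM, with a log2 fold change of -0.12 (SE 0.19, 95% limits -0.57 to 0.33). For *Dusp1* the log2 fold change of -0.71 (SE 0.55, 95% limits -1.996 to 0.57) rested on replicate 1 labelled *Smc3* wt/wt, and it was 0.06 without that library. The limits of *Dusp1*, *Dusp6* and *Dusp10* each overlap those of *Dusp5* (-1.69 to -0.47), and differences between the genes were not tested.

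**Figure D3:**
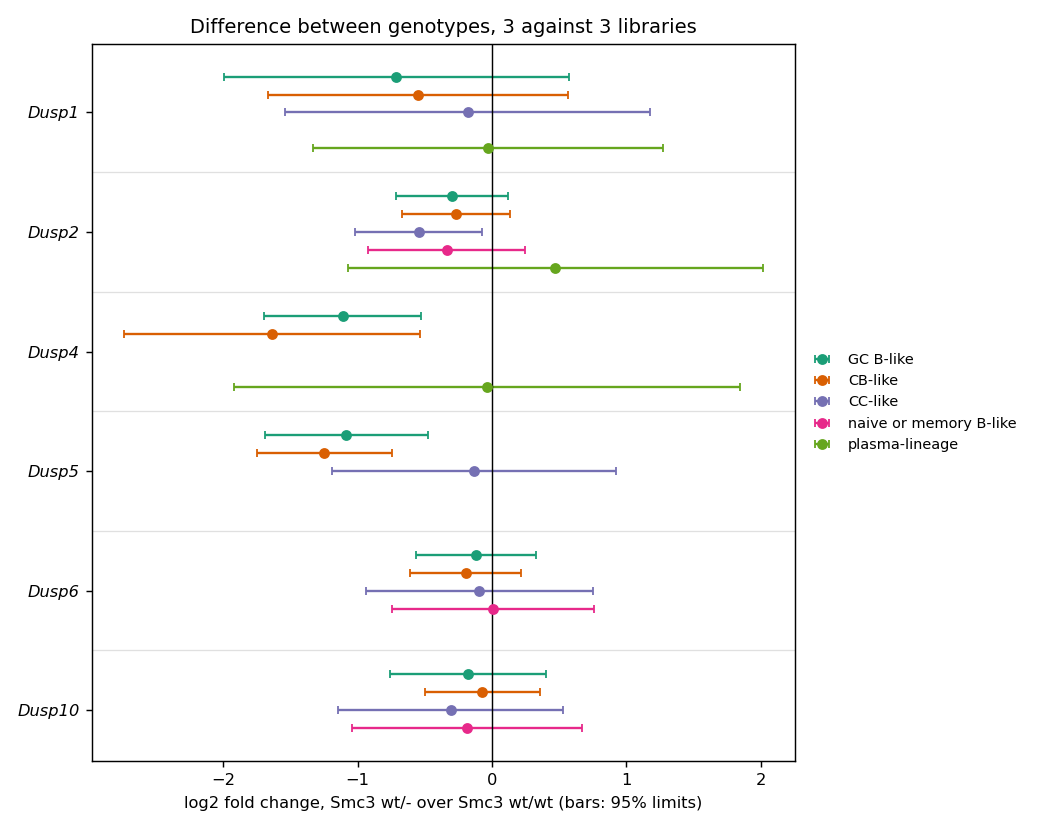
Log2 fold change of *Smc3* wt/- over *Smc3* wt/wt libraries (3 against 3) for each gene and cell class that passed the filter on low counts, with 95% limits from edgeR as bars. In GC B-like cells the bars of *Dusp4* (-1.70 to -0.53) and *Dusp5* (-1.69 to -0.47) lie to the left of 0 and those of the other 4 genes cross it. The members were chosen with these values known, so bars that miss 0 carry no independent support. In this class edgeR called 0 of 10923 genes.

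In the test across all genes, 0 of 10923 genes were called in GC B-like cells (percent called 0), and 179 had an unadjusted p under 0.05. DESeq2 called 1 gene there, which was no member. In CB-like, CC-like, naive or memory B-like and plasma-lineage cells edgeR called 0 of 10035, 7419, 6814 and 5971 genes, whereas 193, 158, 132 and 216 had an unadjusted p under 0.05. DESeq2 likewise called 0 in each. The number of members tested was 6, 6, 5, 3 and 3 in the 5 classes in this order. Libraries did not overlap and were lower in *Smc3* wt/- for 3 of 6 members (*Dusp2*, *Dusp4* and *Dusp5*) in GC B-like cells, against 4.71% of all genes tested. They did so for the same 3 of 6 in CB-like cells, against 5% of genes, and for 1 of 5 (*Dusp2*) in CC-like cells, against 4.84%. In naive or memory B-like and plasma-lineage cells 0 of 3 members were apart, against 3.71% and 3.2% of genes. Apart and higher in *Smc3* wt/- were 0 tested members in all 5 classes, against 3.67%, 3.57%, 3.53%, 2.42% and 0.318% of genes in the order above. Because the members were chosen with these values known, nothing further is read from the counts.

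Sex was unevenly split between genotypes. The direction for *Dusp5* and *Dusp4* was the same within each sex, where 1 genotype had a single library. The only male *Smc3* wt/- library was replicate 2, which stood apart in immunoglobulin and myeloid transcripts. The female *Smc3* wt/wt library had 13.2 CPM *Dusp5* in GC B-like cells and the 2 female *Smc3* wt/- libraries 6.50 and 8.82 CPM. The male libraries had 12.8 and 16.5 CPM (*Smc3* wt/wt) and 2.82 CPM (*Smc3* wt/-). *Dusp4* was at 4.71 against 2.20 and 2.48 CPM in females and at 4.48 and 5.13 against 1.61 CPM in males. With sex as a covariate the log2 fold changes were -1.23 (SE 0.29) for *Dusp5* and -1.16 (SE 0.30) for *Dusp4*. The summed level of 13 plasma-lineage markers in GC B-like cells was 3030 to 3160 CPM in *Smc3* wt/wt and 3310 to 6380 CPM in *Smc3* wt/- libraries, so it separated the genotypes as *Dusp5* and *Dusp4* did, in the opposite order. It also did so in CB-like cells (3300 to 3400 against 3530 to 10400 CPM), S-phase cells (3280 to 3330 against 3460 to 5510 CPM), CC-like cells (1650 to 1980 against 1990 to 2740 CPM), naive or memory B-like cells (1290 to 1320 against 1390 to 2960 CPM), and in the haemoglobin- and *Cd83*-led cluster (2050 to 2650 against 2660 to 83000 CPM). The marker sums overlapped in the *Cd2*-led cluster (3940 to 4350 against 4130 to 4430 CPM), in recycling-like cells (2030 to 2440 against 1970 to 3210 CPM) and in plasma-lineage cells (35800 to 56300 against 34400 to 103000 CPM). The sums of 7 erythroid markers (79.2 to 504 against 61.1 to 1230 CPM) and 14 T cell markers (95.7 to 98.4 against 84.6 to 150 CPM) in GC B-like cells overlapped. Replicate 2 labelled *Smc3* wt/-, which carried the myeloid transcripts, was the lowest library in 7 of 8 B-cell states for each of *Dusp2*, *Dusp5* and *Dusp10*. The part of these transcripts in the differences of *Dusp5* and *Dusp4* was not tested.

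*Dusp5* lies upstream of *Smc3* on the same strand, with 57.97 kb between the end of *Dusp5* and the start of *Smc3*. The part of this position in the difference of *Dusp5* was not tested. Of 17 annotated features whose start lay within 1 Mb of that of *Smc3*, 12 were tested in GC B-like cells. The 10 besides *Dusp5* and *Smc3* split into 4 with lower and 6 with higher fitted values, and 0 were called by edgeR, with 1 at an unadjusted p under 0.05. That gene was *Pdcd4*, with a log2 fold change of 1.93 and with 68.5 CPM in replicate 2 labelled *Smc3* wt/- against 6.27 to 11.3 CPM in the other 5 libraries. The lowest of the 10 was *Nutf2-ps1* at -0.64 (SE 1.01), so *Dusp5* at -1.08 had the lowest fitted value of the 12. As *Dusp5* was chosen with its difference known, this rank carries no independent support.

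**Figure D4:**
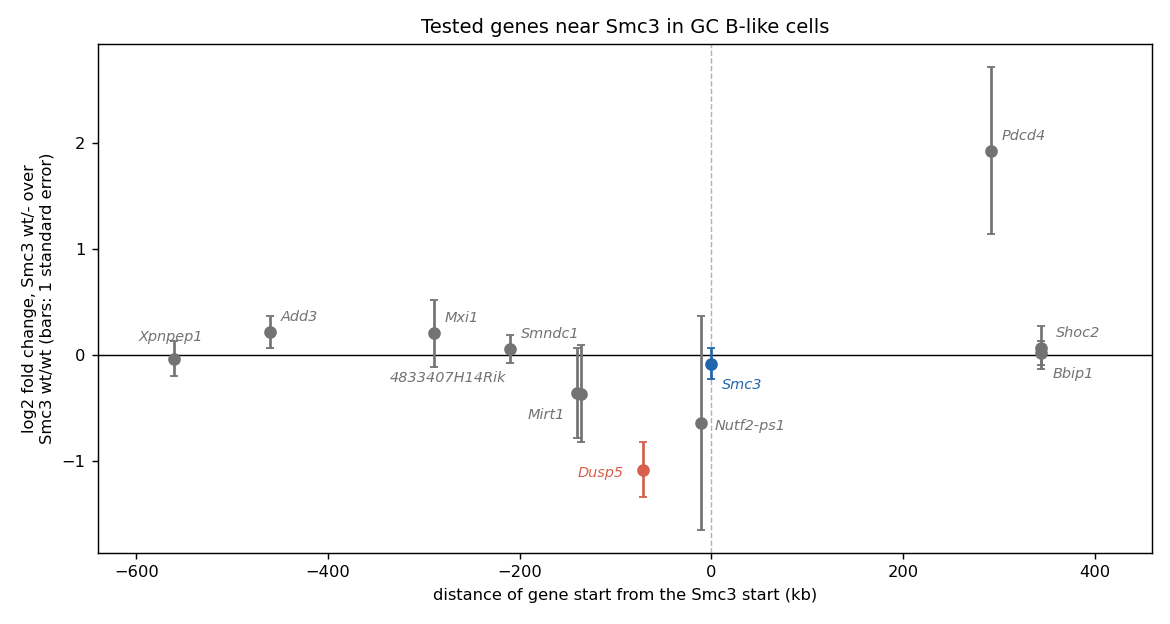
Log2 fold change between genotypes in GC B-like cells, with 1 standard error, for the genes tested within 1 Mb of the start of *Smc3*, by distance of their start in kb. *Dusp5*, 71.29 kb upstream, is at -1.08 and *Smc3* at -0.08, and *Pdcd4* is at 1.93.

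The other genes of the pathway were read from lists of related phosphatases, kinases and targets. Between genotypes, 0 genes of the 5 lists were called by edgeR in any class. In GC B-like cells 1 listed gene had an unadjusted p under 0.05, the immediate early factor *Fos* (-0.69, SE 0.15). The medians there were -0.12 for 2 tested of 4 other MAP kinase phosphatases, 0.12 for 9 of 15 atypical dual specificity phosphatases, -0.04 for 24 of 25 cascade genes, 0.02 for 7 of 15 ERK feedback genes and targets and -0.02 for 18 of 22 immediate early genes, against -0.00413 over all genes.

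Between CC-like and CB-like cells, 7 of 15 tested immediate early genes were called higher and 4 lower (median 0.16). Among these, *Ier2* (2.66), *Junb* (1.97) and *Egr3* (4.54) rose while *Klf6* (-1.16), *Fos* (-0.55) and *Btg2* (-0.44) fell. In the cascade list 5 of 21 rose and 2 fell (median 0.10), with the p38 kinase gene *Mapk11* (1.49), the ERK-activating kinase gene *Map2k1* (0.50) and the JNK gene *Mapk8* (0.79) higher, and *Map2k3* (-0.32) lower. Of the atypical dual specificity phosphatases 1 of 7 rose, *Dusp12* (0.62), and 2 fell, *Dusp22* (-0.55) and *Dusp11* (-0.24), with a median of -0.19. *Phlda1* (1.01) rose as 1 of 3 tested ERK feedback genes and targets (median 0.18), and 0 of 1 tested other MAP kinase phosphatases was called. These shares stand beside the 48.5% of all genes called in this comparison, whose median was -0.00313.

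The immediate early list had 10 of 13 genes lower and 3 higher in recycling-like cells (median -1.04), against 36.3% of all genes lower, and *Dusp1*, *Dusp2*, *Dusp5* and *Dusp6* were lower there. In naive or memory B-like cells 9 of 13 were higher and 0 lower (median 1.17), against 29.7% of all genes higher. In plasma-lineage cells 9 of 13 were higher and 1 lower (median 1.05), against 27.1% of all genes higher. Of the atypical dual specificity phosphatases, 3 of 5 tested were higher in plasma-lineage cells, led by *Dusp22* (2.61) and *Dusp14* (1.96), while *Dusp2* and *Dusp10* were lower there.

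Patterns over 48 profiles (8 B-cell states in 6 libraries) were compared as Pearson r of log2(CPM + 5) over 10796 genes. The profiles share libraries, depth and immunoglobulin content, so r is given as a description. *Dusp2* and *Dusp10* had similar profiles, with r = 0.869, which was 0.768 when plasma-lineage cells were left out, 0.846 without replicate 2 labelled *Smc3* wt/- and 0.588 without both. The other pairs of members ranged from -0.153 (*Dusp2* and *Dusp4*) to 0.531 (*Dusp2* and *Dusp6*). *Mif4gd* was the gene most like both *Dusp2* (r = 0.948) and *Dusp10* (r = 0.919), followed by *Lrmp* (0.942) and *Sp110* (0.941) for *Dusp2* and by *Tmf1* (0.907) and *Cd86* (0.899) for *Dusp10*. *Dusp6* was most like *Cd79b* (0.846), *Snap29* (0.841) and *Lmbrd1* (0.838). For *Dusp1* these were *Gm36839* (0.837), *Gstp1* (0.819) and *Tomm6* (0.784), for *Dusp5* *Ildr1* (0.788), *Zbtb38* (0.781) and *Dhx40* (0.760), and for *Dusp4* *Tg* (0.740), *Prrc1* (0.736) and *Tmem258* (0.722).

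**Figure D5:**
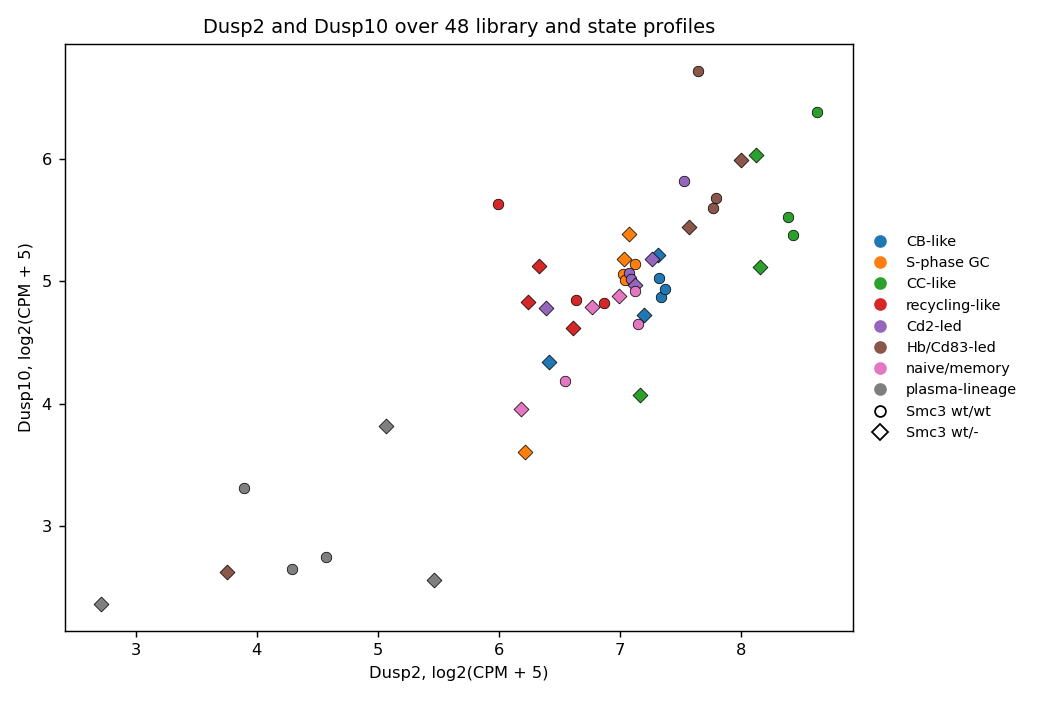
*Dusp10* against *Dusp2* as log2(CPM + 5) in 48 profiles of B-cell states and libraries, coloured by state, with circles for *Smc3* wt/wt and diamonds for *Smc3* wt/- libraries. The 6 plasma-lineage profiles lie at the low end of both axes with 1 profile of the haemoglobin- and *Cd83*-led cluster, and r is 0.869 over all profiles and 0.588 when plasma-lineage cells and replicate 2 labelled *Smc3* wt/- were left out.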

How the data were processed

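Droplet-based 3′ single cell RNA-seq was deposited for 6 libraries, as 1 table of features by barcodes each. The deposited counts are whole numbers of UMIs per gene and barcode, not normalized, made by the authors with Cell Ranger, and the submitters' processing notes name mm10. There is no column of fold changes or p-values. Groups and replicate numbers were taken from the labels.

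Barcodes were kept from 500 detected genes upwards if mitochondrial UMIs made up no more than 10% (21568 of 22939). The 721 highest Scrublet scores (scanpy 1.11.5, 0.8% per 1000 barcodes) were removed as doublets, leaving 20847 cells. Cells were clustered in Seurat 5.3.0 (R 4.3.3; reciprocal PCA, 1878 of 2000 variable genes, 30 components, 20 neighbours, resolution 0.5), leaving out the members, listed genes and immunoglobulin genes. Clusters were named from marker lists by a rule written after clusters had been seen (at least 3 detected markers, highest 10 genes by CPM fold with a pseudocount of 10). Doubtful clusters stayed unnamed, and where states differ from those of the study, the renaming may be the reason.

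UMIs were summed per library and state, since cells are not replicates. Sums were tested with edgeR 4.0.16 (TMM, filterByExpr, quasi-likelihood test, limma 3.58.1) over all genes and called at a Benjamini-Hochberg adjusted p under 0.05. Genotypes were compared without covariates (3 against 3 libraries) and states with the library as a block. The test was run on simulated counts with known changes first. States needed at least 20 cells in a library. CPM are raw sums scaled by their total, without TMM scaling. Neighbouring states were called apart where the mean difference within libraries exceeded its SD. The genes and lists were chosen with earlier results of these data known. Named genes were the 6 members, *Smc3*, the 3 genes most alike to each member (at least 100 UMIs) and up to 3 called genes per list and direction in CC-like against CB-like cells; any other named gene was picked after its values were seen, and 1 gene that the rule named is not reported here.

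Deviations from the group means of same-numbered libraries correlated at 0.236, 0.108 and 0.195 in GC B-like, 0.228, 0.154 and 0.154 in CB-like and 0.366, 0.339 and 0.157 in naive or memory B-like cells. These correlations all passed 0.1, and the labels do not state a pairing. They did not all pass 0.1 in CC-like (0.149, 0.0788, 0.121) and plasma-lineage cells (0.132, 0.069, 0.171). The main genotype fits were unpaired throughout, and the replicate block was an alternative. Alternatives were DESeq2 1.42.0, its size factors, immunoglobulin genes left out, no low-count filter, a replicate block, cells kept from 200 genes and up to 20% mitochondrial UMIs, no doublet removal, clustering at a resolution of 1 or without integration, and each library left out. Alternatives added after the data had been seen were sex as a covariate, CPM over non-immunoglobulin UMIs and the genes within 1 Mb of *Smc3*.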

Additional observations from a re-analysis of the deposited data

How the results depend on the processing

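The counts of genes called between genotypes were 0 under most settings. DESeq2 called 1 gene in GC B-like cells (*Ddah2*, -1.27) and the fit without integration 1 in CB-like cells (*Tmem121*). Without the low-count filter 21 genes were called in CC-like, *Dusp4* among them, 30 in naive or memory B-like and 3 in plasma-lineage cells (*Igkv14-111*, *Dqx1* and *Ighv5-2*). Leaving out 1 library gave 0 to 1 calls, the 1 being *Ighg2c* in plasma-lineage cells in the fit lacking replicate 2 labelled *Smc3* wt/-. With the replicate number as a block, 0 genes were called in each of the 5 classes, and the log2 fold changes in GC B-like cells were -1.18 for *Dusp5* and -1.09 for *Dusp4*. Between CC-like and CB-like cells 3877 genes were called with the library as a block and 2290 with no replicate block, a fit that ignores that both states come from each library. Leaving out 1 library gave 3229 to 4109 calls there, 5386 to 6255 in recycling-like, 3769 to 4643 in naive or memory B-like and 3364 to 4824 in plasma-lineage cells. No called result reversed its direction. Of 365 alternative log2 fold changes between genotypes, for members that passed the low-count filter, 358 stayed within the spread between libraries and 7 moved by more, and none changed a call. Of 285 between states, 23 lost a call, all of them of *Dusp1*, and 5 of *Dusp1* or *Dusp2* gained one, while 4 others moved by more than the spread. Of 140 alternative values of *Smc3*, 132 stayed within the spread, 5 lost a call and 3 moved. Counts of listed genes called between CC-like and CB-like cells had 75 alternatives, of which 70 stayed within a ratio of 1.5 and 5 moved. Depth limits *Dusp4* above all, with at most 130 UMIs in a library's GC B-like cells and 4 in all CC-like cells labelled *Smc3* wt/-. Counting error alone covers neither the animals nor cell capture.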

Other observations

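The genes were also counted in the few cells outside the B lineage. In T cell-like cells *Dusp2* stood at 110, 70.3 and 110 CPM in *Smc3* wt/wt and at 164, 130 and 148 CPM in *Smc3* wt/- libraries, from 12 to 55 UMIs each, so the groups did not overlap and lay in the opposite order to GC B-like cells. Of the genes with at least 20 UMIs in T cell-like cells, 3.71% were likewise higher without overlap. The difference between the cell types was not tested. *Dusp5* in T cell-like cells stood at 15.7, 11.7 and 22.1 CPM against 35.6, 19.0 and 21.9 CPM, with 2 to 8 UMIs per library and overlapping groups. *Dusp4* was at 0 UMIs in the myeloid-like cells of all 6 libraries, and *Dusp10* gave 6 UMIs there, all of them in replicate 2 labelled *Smc3* wt/-. *Dusp1* had higher values in T cell-like (32.8 to 142 CPM) than in GC B-like cells of the same library in all 6 libraries, and replicate 1 labelled *Smc3* wt/wt was again the highest.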
